A study of Mus musculus with 6 samples.

Results

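Mouse embryonic fibroblasts carrying the Gadd45a mutant G39A were compared with fibroblasts carrying the control Flag, at day 8 of reprogramming. The members are the 4 arrays of these 2 groups, of 6 arrays in the series, with 2 arrays each for SKO+Flag and SKO+G39A, and each difference was taken within a replicate number (replicate 1 with replicate 1, replicate 2 with replicate 2). Every culture, the controls included, was infected with SKO and then kept for 6 days in high-glucose medium with 15% serum and LIF. The labels describe G39A as a negative mutant of Gadd45a and do not spell out SKO, which in this field usually stands for Sox2, Klf4 and Oct4. They give no mouse strain or embryonic age, and no promoter for the introduced genes. They do not say that the replicates came from separate cultures, and a p-value here speaks only of how far these arrays vary, which may be technical.

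Gadd45a is a small acidic protein induced by growth arrest and DNA damage. It binds several partners, among them PCNA, the CDK inhibitor p21 and the kinase MEKK4, which acts above p38 and JNK, and it has been linked to DNA repair, DNA demethylation and looser chromatin. In reprogramming, fibroblasts have to give up their matrix and contractile genes, gain epithelial junctions and then switch on the pluripotency network. The comparison asks which genes differ from the control when the mutant is present.

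The arrays are 1-colour arrays, so a level is a spot's processed signal (an intensity in arbitrary units), not scaled unless stated. A difference is given on the log2 scale after each array's 75th percentile was subtracted. As a signal, that percentile was 830 in Flag and 953 in G39A in replicate 1, and 803 and 783 in replicate 2. A replicate 1 signal can therefore be higher with G39A although its difference is below 0. A probe is called well above background when the scanner software marked it so. Between 59.6% and 62.9% of the spots on the 4 arrays were well above background, and none was saturated. The replicate 1 G39A array is alone on its slide, and the replicate 1 Flag array lies on another, so that slide and group cannot be told apart within replicate 1. Both replicate 2 arrays share a slide. Over 21637 probes well above background on all 6 arrays of the series, the differences between the G39A and Flag arrays had an SD of 0.278 across slides in replicate 1 and 0.219 on the shared slide in replicate 2. Other pairs that share a slide gave 0.239 (Flag and Gadd45a, replicate 1), 0.341 (Flag and Gadd45a, replicate 2) and 0.272 (Gadd45a and G39A, replicate 2). Across slides, the replicate 1 Gadd45a and G39A arrays gave 0.300. The values across slides within replicate 1 thus lay inside the range of the pairs that share a slide. Between a Flag array and a G39A array of different replicate numbers, the SD was 0.992 to 1.02. The differences between replicate numbers were thus far larger than those between the groups.

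Fibroblast markers bore out the labelled cell type on all 4 arrays, and 18 of the 19 listed were well above background on each. Thy1, a fibroblast surface marker, read 17531 in Flag and 20100 in G39A in replicate 1, and 106230 and 104160 in replicate 2, with differences of -0.00 and 0.01. The probe for Gadd45a itself (chr6:66985376-66985435, mm9) read 1017 in Flag and 1395 in G39A in replicate 1, and 2309 and 2148 in replicate 2. The signal was higher with G39A in replicate 1 and lower in replicate 2 (0.26 and -0.07), and the groups overlapped (limma adjusted p 0.993). Whether this probe detects the introduced copy was not tested. Its relatives Gadd45b and Gadd45g also had opposite signs: Gadd45b differed by -0.34 and 0.08 (another probe of it had the opposite sign) and Gadd45g by -0.21 and 0.11.

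No probe passed the test of G39A against Flag in the main fit. With limma and the replicate number as a block, 0 of 24149 probes tested (0%) passed a Benjamini-Hochberg adjusted p of 0.05, and the lowest adjusted p was 0.145. At an unadjusted p under 0.05 there were 721 probes, 249 of them higher with G39A and 472 lower, and the median standard error of a difference was 0.123. That split depended on dim probes: it was 267 higher and 303 lower among probes well above background on all 4 arrays (a filter added after seeing the data), and 1123 higher and 630 lower with no filter. Without the replicate 2 G39A array it was 1073 higher and 658 lower. Taking 1 probe per gene, 153 of 15587 genes (0.982%) were higher and 283 (1.82%) lower at that unadjusted level. The values below are therefore descriptions of these 4 arrays, and adjusted p-values are given from this fit.

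The 2 replicates gave different pictures. Of 14670 genes whose probe was well above background on all 4 arrays, 2870 (19.6%) were higher with G39A in both replicates and 4079 (27.8%) lower in both, while 7721 (52.6%) had opposite signs. The median difference over these genes was -0.05 in replicate 1 and 0.00 in replicate 2. No gene (0%) was at least 2-fold higher in both replicates, and 2 genes (0.0136%), Akap5 and Apba1, were at least 2-fold lower in both. Counted as probes, these were 2 of 22691 (0.00881%). Within replicate 1, 111 genes (0.757%) were at least 2-fold higher and 45 (0.307%) at least 2-fold lower. Within replicate 2 these counts were 89 (0.607%) and 26 (0.177%). Both G39A signals lay above both Flag signals, after scaling, for 716 genes (4.88%) and below both for 667 (4.55%).

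What the 2-fold genes were also differed. Of the 89 genes 2-fold higher in replicate 2, 32 belong to the lists of interferon effectors, interferon-induced GTPases and antigen presentation genes. These lists hold 58 of all 14670 genes. Of the 89, 27 lay above the median signal of all genes. Of the 111 genes 2-fold higher in replicate 1, none was on these lists, which says little, as few of any 111 genes would be. Of the 111, 8 lay above the median signal, with a median signal of 82.2 against 383 for the replicate 2 genes. In the other replicate these 2-fold higher genes lay near or below 0: the 111 had a median difference of -0.03 in replicate 2, and the 89 a median of -0.12 in replicate 1. Of the 45 genes 2-fold lower in replicate 1, 16 were lower in replicate 2, with a median of 0.14. Of the 26 genes 2-fold lower in replicate 2, 21 were also lower in replicate 1, with a median of -0.20. Of these 26, 25 lay in the dimmest of 4 equal classes of signal. The spread of the differences was wider among dim probes, with an SD in replicate 1 of 0.435 in the dimmest of 4 equal classes of signal and 0.185 in the brightest.

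**Figure D1:**
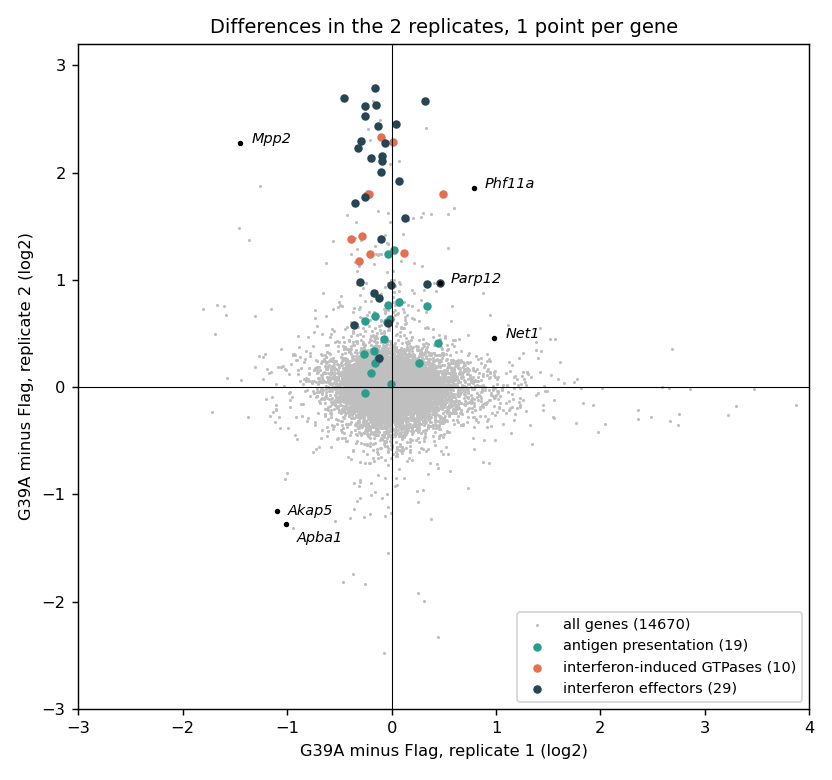
Difference between G39A and Flag (log2) in replicate 1 on the x axis and in replicate 2 on the y axis, with 1 point for each of 14670 genes (probes bright enough on all 4). The 29 interferon effectors and 10 interferon-induced GTPases all lie above 0 on the y axis and within 0.50 of 0 on the x axis, while Akap5 and Apba1 lie below -1 on both.

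The widest pattern was in interferon-stimulated genes, and it was a pattern of replicate 2. These genes answer interferons, and they encode antiviral effectors, GTPases that act on intracellular pathogens, and the machinery of antigen presentation by MHC class I. Of the 29 interferon effectors well above background on all 4 arrays, 29 were higher with G39A in replicate 2, against 50.4% of all genes, and 20 of them at least 2-fold. In replicate 1, only 6 of the 29 were higher, against 41.4% of all genes. The median difference was 2.01 in replicate 2 and -0.12 in replicate 1, against medians of 0.00 and -0.05 over all genes. Of the 30 effectors tested, 1 had an unadjusted p under 0.05, against 436 of 15587 genes (2.8%), and none passed in limma after adjustment.

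The sequences just before the start of these genes are shown because the genes differed together within 1 replicate. The motif GAAA, any 2 bases, GAAA, or on the other strand TTTC, any 2 bases, TTTC, which is the core of the interferon-stimulated response element, was searched in the 250 bases before each start in RefSeq's promoter table (GRCm38.p6), with overlapping matches counted. Of the 21 interferon effectors with a window there, 7 held a match, as did 7 of the 8 GTPase genes, 3 of 17 antigen presentation genes and 936 of 27025 genes in all (3.46%). None of 36 S phase genes and 1 of 25 collagen and matrix genes held one. The interferon lists were made of genes known to answer interferons, so a higher share of matches was likely in advance. These counts therefore tell nothing about the differences on these arrays. Counted by window, 2.98% of all 32851 windows held a match. The 4 effectors below have the highest replicate 2 differences among those with a match, and capitals mark the motif in the gene's own strand, 5′ to 3′. The windows are chr19:34640639-34640888 (plus strand) for Ifit1, chr4:156200819-156201068 (minus strand) for Isg15, chr5:120907526-120907775 (minus strand) for Oas1a and chr12:26456453-26456702 (minus strand) for Rsad2.
Ifit1: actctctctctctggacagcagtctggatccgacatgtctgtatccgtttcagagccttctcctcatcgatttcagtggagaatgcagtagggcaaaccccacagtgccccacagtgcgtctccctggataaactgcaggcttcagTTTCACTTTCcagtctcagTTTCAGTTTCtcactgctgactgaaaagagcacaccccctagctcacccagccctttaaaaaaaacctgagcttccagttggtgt
Isg15: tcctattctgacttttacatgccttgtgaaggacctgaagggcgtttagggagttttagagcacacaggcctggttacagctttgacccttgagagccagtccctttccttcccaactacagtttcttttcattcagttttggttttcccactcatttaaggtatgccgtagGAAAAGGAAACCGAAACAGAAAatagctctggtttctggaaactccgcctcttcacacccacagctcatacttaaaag
Oas1a: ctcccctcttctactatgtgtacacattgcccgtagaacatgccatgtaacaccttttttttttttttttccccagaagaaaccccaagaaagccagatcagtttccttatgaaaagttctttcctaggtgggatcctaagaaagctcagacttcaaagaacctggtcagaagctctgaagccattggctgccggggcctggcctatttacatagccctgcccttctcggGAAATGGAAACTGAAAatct
Rsad2: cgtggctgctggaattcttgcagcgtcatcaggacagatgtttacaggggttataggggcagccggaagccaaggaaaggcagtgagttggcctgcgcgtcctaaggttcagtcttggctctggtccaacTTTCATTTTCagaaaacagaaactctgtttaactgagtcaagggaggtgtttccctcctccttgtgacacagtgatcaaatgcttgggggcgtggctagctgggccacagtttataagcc
Isg15 held 3 overlapping matches, the first starting 78 bases before the start and the last 66. Oas1a held 2, at 20 and 14 bases, Ifit1 held 2, at 104 and 85 bases, and Rsad2 held 1, at 120 bases. A match is a description of letters and not a measured binding site.

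Among these effectors, Isg15, a ubiquitin-like protein that is attached to other proteins, read 6765 in Flag and 6510 in G39A in replicate 1, and 3337 in Flag and 19984 in G39A in replicate 2. The replicate 2 G39A array was thus the highest of the 4 and the replicate 2 Flag array the lowest, so the groups overlapped. The differences were -0.25 and 2.62 (6.14-fold in replicate 2), with a mean of 1.18 and a standard error of 0.74 (limma adjusted p 0.991). Usp18, which removes Isg15 and dampens the interferon receptor, read 3879 and 3254 in replicate 1 and 715 and 4525 in replicate 2. Ifit1, which binds foreign RNA ends, read 2388 and 2465 in replicate 1 and 1415 and 8521 in replicate 2. Both followed Isg15 in having the replicate 2 Flag array lowest and the replicate 2 G39A array highest.

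The Flag array of replicate 2 was the lowest of the 4 for 26 of the 29 effectors, while the G39A array of replicate 2 exceeded both replicate 1 arrays for 18 (signals scaled by the 75th percentile). Among the rest were Oasl2, Oas2 and Irf7. Oasl2, an oligoadenylate synthetase-like protein, had the largest replicate 2 difference of the list, 2.79. Its signal was 6051 in Flag and 6238 in G39A in replicate 1, and 595 and 4017 in replicate 2. Oas2, an enzyme that makes 2-5 oligoadenylate to activate RNase L, read 2194 and 2592 in replicate 1 but 31.2 and 166 in replicate 2, a difference of 2.45 at a far lower level. Irf7, the factor that amplifies interferon transcription, read 650 and 695 in replicate 1 and 156 and 613 in replicate 2. The transcription factor genes Stat2 and Irf9 had smaller replicate 2 differences, 0.83 and 0.60. Their replicate 1 differences were -0.12 and -0.03.

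**Figure D2:**
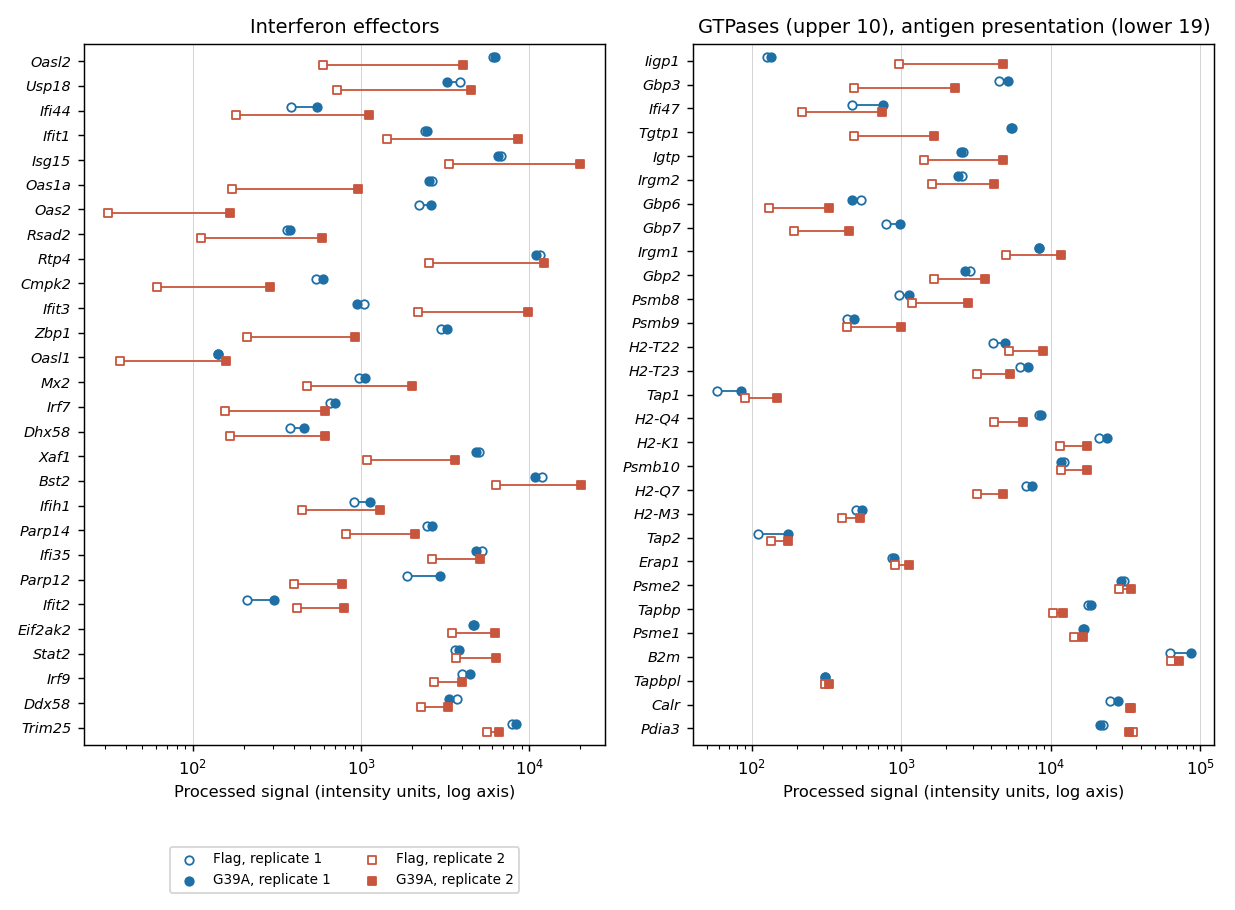
Processed signal (intensity units, log axis) of 28 of the 29 interferon effectors on the left and of interferon-induced GTPases and antigen presentation genes on the right, each ordered by the replicate 2 difference. Open symbols are Flag arrays, filled symbols G39A arrays, circles replicate 1 and squares replicate 2; the replicate 2 lines are long, as for Isg15 from 3337 to 19984, and the replicate 1 lines short, as for Isg15 from 6765 to 6510.

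Summed over the 29 effectors, with each signal divided by its array's 75th percentile, the level was 121 in Flag and 106 in G39A in replicate 1 and 57.7 and 172 in replicate 2. The Flag array of replicate 2 is shared with the comparison of Gadd45a with Flag. The sums on the Gadd45a arrays were 133 in replicate 1 and 207 in replicate 2, so the replicate 2 Flag array was the lowest of all 6. Markers of macrophages and other leukocytes, cells that also express such genes, were mostly lower with G39A in replicate 2. Of the 31 on the array, 24 were well above background on both replicate 2 arrays, and 20 of these 24 were lower with G39A, against 7469 of 15023 genes in all. Itgam, an integrin chain of myeloid cells, went the other way, from 246 in Flag to 348 in G39A in replicate 1 and from 19.2 to 57.4 in replicate 2 (0.30 and 1.62). Their summed level was 7.53 in Flag and 7.68 in G39A in replicate 1, and 15.6 and 11.3 in replicate 2. Of the 31, 17 were well above background on all 4 arrays, and Ptprc, Fcgr2b, Spi1, Mrc1, Cd163 and H2-Aa on none. The part of these cells in the interferon differences was not tested.

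The interferon-induced GTPases repeated the pattern. All 10 measured on the 4 arrays were at least 2-fold higher in replicate 2 and 3 of the 10 were higher in replicate 1, with medians of 1.60 and -0.21. Iigp1, an immunity-related GTPase that attacks pathogen vacuoles, read 126 in Flag and 134 in G39A in replicate 1 and 968 and 4767 in replicate 2. Both of its replicate 2 signals were above both of replicate 1. Gbp3, a guanylate-binding protein, read 4512 and 5210 in replicate 1 and 483 and 2291 in replicate 2. Ifi47 was the member with the largest difference shared by both replicates, 0.50 and 1.81, from 468 to 757 in replicate 1 and from 217 to 741 in replicate 2. Both G39A signals were above both Flag signals, and its limma adjusted p was 0.991.

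Antigen presentation genes had smaller differences. Of 19 measured, 18 were higher in replicate 2, with a median of 0.45, and 2 at least 2-fold, the immunoproteasome subunits Psmb8 (1.28) and Psmb9 (1.24). In replicate 1 the median was -0.05. In both replicates 5 of the 19 were higher and 1 was lower, and 13 had opposite signs. Tap2, a subunit of the transporter that loads peptides onto MHC class I, read 111 in Flag and 174 in G39A in replicate 1 and 134 and 174 in replicate 2, differences of 0.45 and 0.41. Both G39A signals were above both Flag signals. Its partner Tap1 read 58.6 and 85.0 in replicate 1 and 90.3 and 148 in replicate 2 (0.34 and 0.75), with overlap. B2m, the light chain of MHC class I, read 62734 and 86372 in replicate 1 and 63425 and 72388 in replicate 2 (0.26 and 0.23), without overlap. The adjusted p was 0.991 for Tap1, Tap2 and B2m. Among cytokines and chemokines, 2 of 20 were 2-fold higher in replicate 2, Cxcl10 and Ccl5, both interferon-inducible, while Il6, Ccl2 and Ccl7 differed by 0.06 to 0.26 there.

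Genes higher with G39A in both replicates were ranked by the smaller of their 2 differences. Among the leading 12 were Ifi47 and Parp12, both on the interferon lists, and Parp9, another ADP-ribosyltransferase family gene. Phf11a, a zinc finger protein (chr14:59895771-59895830, mm9), led with differences of 0.78 and 1.86, from 803 to 1588 in replicate 1 and from 179 to 633 in replicate 2. Parp9 (0.54 and 1.30) went from 1323 to 2205 and from 526 to 1259, and Parp12 (0.46 and 0.97), on chr6:39036828-39036887, from 1874 to 2963 and from 401 to 766. For Phf11a and Parp12 the replicate 1 Flag signal was above the replicate 2 G39A signal, so the groups overlapped although each pair went the same way. For Parp9 the groups overlapped before scaling and did not after it. The mean difference was 1.32 with a standard error of 0.46 for Phf11a and 0.72 with a standard error of 0.18 for Parp12, with an adjusted p of 0.991 for both in limma.

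The rest of the leading 12 were mostly dim. Stra6, the vitamin A receptor, read 172 in Flag and 281 in G39A in replicate 1 and 119 and 159 in replicate 2, with like differences of 0.51 and 0.46. Net1, an exchange factor for RhoA, read 60.0 and 136 in replicate 1 and 150 and 201 in replicate 2 (0.99 and 0.46). Ccdc122 differed by 0.46 and 0.45, and Fhl4, a LIM domain protein, by 0.59 and 0.44. Net1 and Stra6 both overlapped between the groups, as replicate 1 and replicate 2 stood at different levels. Ccdc187, Lce1l, Tdpoz1 and Agbl2, with no signal above 118 on the 4 arrays, complete the set.

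**Figure D3:**
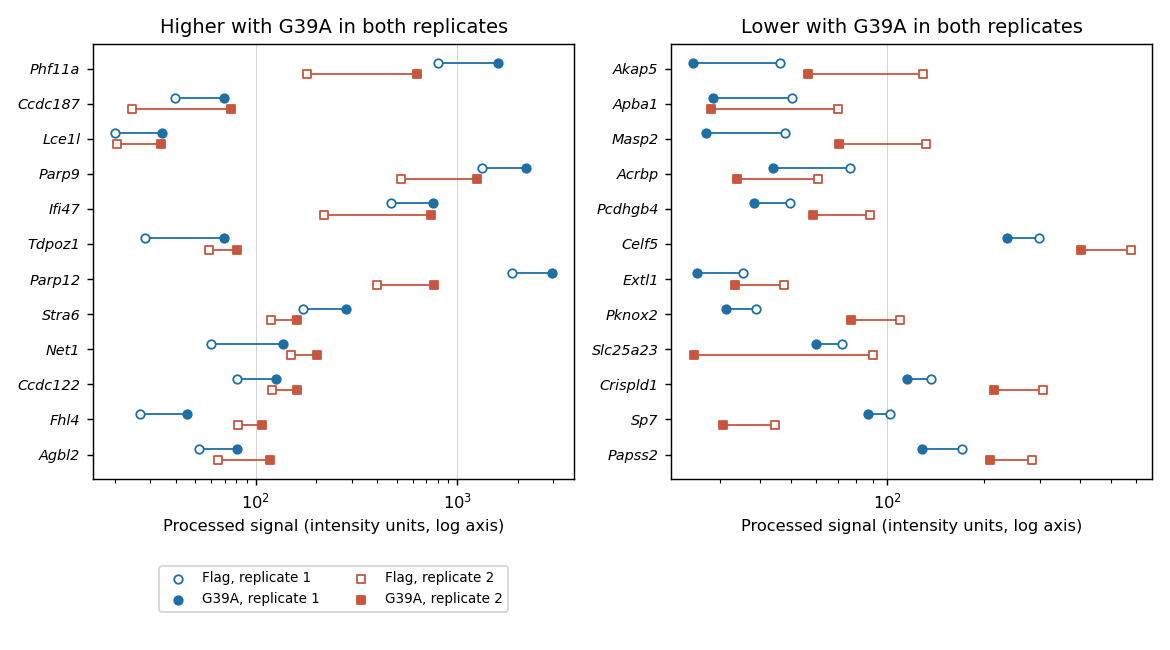
Processed signal (intensity units, log axis) of the 12 genes higher and the 12 genes lower with G39A in both replicates by the largest smaller difference. Open symbols are Flag and filled symbols G39A, circles replicate 1 and squares replicate 2; each line links the arrays of 1 replicate, and Parp12 (401 to 2963) and Parp9 (526 to 2205) are among the brightest, Akap5 (24.8 to 129) and Apba1 (28.3 to 70.1) among the dim ones.

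Genes lower with G39A in both replicates were led by Akap5 and Apba1, the only ones 2-fold lower in both. Akap5 anchors protein kinase A and calcineurin at the membrane. Its signal (chr12:77434981-77435040, mm9) was 46.2 in Flag and 24.8 in G39A in replicate 1, and 129 and 56.6 in replicate 2, 2.14-fold and 2.23-fold lower with G39A. Apba1, an adaptor that binds the amyloid precursor protein (chr19:24021685-24021744), read 50.3 and 28.6 in replicate 1 and 70.1 and 28.3 in replicate 2, 2.02-fold and 2.42-fold lower. Both G39A signals of Apba1 were below both Flag signals, while the replicate 2 G39A signal of Akap5 exceeded the replicate 1 Flag signal. The mean differences were -1.13 with a standard error of 0.21 for Akap5 (adjusted p 0.991) and -1.15 with a standard error of 0.15 for Apba1 (adjusted p 0.746). Both lie near the lowest signals called well above background, 17.1 to 21.5 on these arrays. With normexp background correction the 2-fold lower count was 0 in place of 2, and the differences were -0.36 and -0.72 for Akap5 and -0.41 and -0.52 for Apba1.

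The next ones were Masp2, a protease of the lectin complement pathway, and Acrbp, a proacrosin-binding protein of sperm. Masp2 read 47.9 in Flag and 27.2 in G39A in replicate 1 and 132 and 71.0 in replicate 2 (-1.02 and -0.86). Acrbp read 76.8 and 44.0 in replicate 1 and 60.7 and 34.0 in replicate 2, a mean difference of -0.90, with both G39A signals below both Flag signals. Celf5, a splicing factor, was the brightest of the 12, at 298 and 237 in replicate 1 and 576 and 403 in replicate 2 (-0.53 and -0.48). Papss2, which makes the sulfate donor needed for proteoglycans, differed by -0.61 and -0.41, and Sp7, the osteoblast factor osterix, by -0.43 and -0.50. The heparan sulfate enzyme gene Extl1, the homeobox gene Pknox2, the secreted protein gene Crispld1, the protocadherin gene Pcdhgb4 and the mitochondrial carrier gene Slc25a23 had smaller differences between -0.44 and -0.55 in the replicate where they differed less.

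Probes bright in 1 group only were counted apart, since their level in the other group is a bound. There were 180 probes well above background on both Flag arrays and on neither G39A array, and 20 of the reverse kind. For a bound, the dim probe's signal on an array was raised to the lowest signal called well above background there where it was below that, and the bright group's mean was divided by the mean so obtained. By this measure 30 of the 180 and 6 of the 20 were at least 2-fold apart, with medians of at least 1.41-fold and 1.64-fold. None passed in limma after adjustment. Their bright signals were low, with medians of 27.7 for the Flag-only and 31.1 for the G39A-only probes. That lowest signal was 19.3 and 17.1 for Flag and 21.5 and 21.2 for G39A, and the part of this in the uneven counts was not tested. On the Gadd45a arrays that lowest signal was 35.1 in replicate 1 and 20.4 in replicate 2. The replicate 1 value is above both median bright signals, so many of these probes would be called dim there at an unchanged level. On the Gadd45a arrays, 122 of the 180 Flag-only probes were dim on both and 5 bright on both. Of the 20 G39A-only probes, 15 were dim on both and 0 bright on both. These counts therefore do not show which group the Gadd45a arrays resemble.

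Dlgap1, a scaffold protein of synapses (chr17:70943458-70943517, mm9), had the largest bound, at least 4.82-fold higher in Flag. It read 59.1 in Flag and 10.5 in G39A in replicate 1 and 160 and 17.3 in replicate 2, with an adjusted p of 0.173. The probes named here for Dlgap1, Sfi1, Lrba, Esyt3, Commd6, Rprd2 and Zbtb38 are not the brightest of their genes. They do not give the level of the gene. For Sfi1, Lrba, Commd6, Rprd2 and Zbtb38 another probe was well above background on all 4 arrays. Dcdc5 was at least 4.02-fold higher in Flag, at 102 and 14.2 in replicate 1 and 64.6 and 4.69 in replicate 2. Gimap5, a GTPase of lymphocytes, was at least 2.85-fold higher, at 42.4 and 4.56 in replicate 1 and 78.1 and 4.54 in replicate 2. For Dlgap1, Dcdc5 and Gimap5 both Flag signals were above both G39A signals. Probes chosen as bright in Flag only are largely bound to separate in this way, so it is no separate result. Sfi1, Lrba and Tmem132b followed with bounds of 3.15, 2.80 and 2.77. Another measured probe of Lrba had the opposite sign.

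In the other direction, Esyt3, an extended synaptotagmin that tethers membranes (chr9:99217643-99217702), was at least 2.52-fold higher with G39A, at 3.98 and 25.8 in replicate 1 and 3.47 and 90.9 in replicate 2. The interferon-induced GTPase Gbp5 was at least 2.23-fold higher by this bound, which averages the replicates and came mostly from replicate 2. It read 16.08 in Flag and 23.98 in G39A in replicate 1, and 15.4 and 76.7 in replicate 2 (0.378 and 2.35). The replicate 1 G39A signal lay near the lowest called well above background on that array, 21.5. Neither Flag signal was well above background. Ttll13, a tubulin-modifying enzyme, was at least 1.99-fold higher, and Commd6, Rprd2 and Zbtb38, a zinc finger protein that binds methylated DNA, had bounds of 1.80, 1.65 and 1.63. Of the other probes of Rprd2 that were measured, 2 of 4 had the opposite sign.

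Pluripotency and epithelial genes split by replicate before they split by group. Pou5f1 read 3851 in Flag and 6363 in G39A in replicate 1, and 3.57 and 4.40, not well above background, in replicate 2. Cdh1, the junction protein E-cadherin, read 360 and 482 in replicate 1 and was likewise dim in replicate 2, at 3.85 and 4.68. Nanog, at 23.1 and 40.2, was near background in replicate 1 and dim in replicate 2, and Sox2 was well above background only on the replicate 2 Flag array, at 21.9. Only replicate 1 therefore informs on Pou5f1, Cdh1 and Nanog, and there the pair also differs in slide. SKO, as usually read, includes Pou5f1 (Oct4), yet its probe was not well above background on any replicate 2 array of the series, the Gadd45a array included (4.22). Whether the probe detects an introduced copy was not tested.

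Over the 21 pluripotency genes well above background on both replicate 1 arrays, 10 were higher with G39A and 11 lower, with a median of -0.04 against -0.05 over all genes. The higher ones held Pou5f1 (0.53), Tfcp2l1 (0.54), Klf2 (0.60) and Gdf3 (0.47), and the lower ones Klf4 (-0.22), Zfp42 (-0.39), Mycn (-0.26) and Tbx3 (-0.20). Of the 14 measured on all 4 arrays, 2 were higher and 6 lower with G39A in both replicates and 6 opposite. Esrrb, Dppa3, Dppa4, Lin28a, Utf1 and Zscan4c were not well above background on any of the 4 arrays.

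Epithelial genes gave 11 of 25 higher in replicate 1 (median -0.05) and 11 of 15 higher in replicate 2 (median 0.19). Krt8, a keratin of simple epithelia, read 131 in Flag and 211 in G39A in replicate 2 (0.73) and 2208 and 2731 in replicate 1 (0.11). Krt5, of basal epithelia, was near background, with differences of 0.74 and 0.31. Krt18, Krt19 and Krt14 were higher by 0.30 to 0.39 in replicate 2 and differed by -0.05 to -0.23 in replicate 1. The summed epithelial level, over all 32 markers, was 49.3 and 44.9 in replicate 1 and 21.9 and 23.9 in replicate 2.

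Fibroblast matrix genes differed little within each replicate. Collagens and matrix genes had medians of -0.01 and -0.06, with 6 of 38 higher in both replicates, 16 lower in both and 16 opposite. Col1a1 read 34670 in Flag and 44319 in G39A in replicate 1 and 86980 and 83913 in replicate 2 (0.16 and -0.02). Col5a1, Col11a1, Col6a2 and Thbs2 were lower in both replicates, with differences of -0.12 to -0.26. Of the 2 other measured probes of Col11a1, 1 had the opposite sign. Col15a1, a basement membrane collagen, read 340 and 380 in replicate 1 and 252 and 84.1 in replicate 2 (-0.04 and -1.55), which made it the widest matrix difference. Of 23 contractile genes none was higher in both replicates and 9 were lower in both, with medians of -0.14 and -0.02. Tpm2, a tropomyosin, read 7809 and 7477 in replicate 1 and 41225 and 27822 in replicate 2 (-0.26 and -0.53). Its 1 other measured probe had the opposite sign. Acta2, smooth muscle actin, differed by -0.15 and -0.02. Among the mesenchymal transcription factors, Snai1 differed by -0.20 and -0.22 and Twist2 by -0.09 and -0.10.

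The genes through which Gadd45a is known to act showed small differences. Of 31 partners and relatives measured, 3 were higher and 7 lower with G39A in both replicates and 21 opposite, with medians of -0.02 and -0.00. Map3k4, which encodes the kinase MEKK4 that Gadd45 proteins activate, differed by -0.25 and -0.07, and Mapk14 (p38 alpha) by -0.28 and 0.01. Trp53 differed by 0.02 and 0.06, and Cdkn1a, the gene of p21, by -0.02 and -0.01, at 21655 in Flag and 24527 in G39A in replicate 1 and 22915 and 22156 in replicate 2. Of 31 p53 targets, 6 were higher and 11 lower with G39A in both replicates, with medians of -0.03 and -0.01. The p53 targets Apaf1, Plk2, Tigar and Mdm2 were higher by 0.16 to 0.27 in both. The 1 other measured probe of Mdm2 had the opposite sign. Of 26 DNA methylation and demethylation genes, 6 were higher in both and 5 lower in both; Dnmt3a, a de novo methyltransferase, read 2990 and 2914 in replicate 1 and 1641 and 1361 in replicate 2 (-0.24 and -0.23), and Tet2, a 5-methylcytosine oxidase, had opposite signs (0.60 and -0.24). Tdg, the glycosylase of active demethylation, differed by -0.11 and 0.17.

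Chromatin, RNA and stress genes also had medians near 0. Of 39 heterochromatin and Polycomb genes 8 were higher and 9 lower with G39A in both replicates, Cbx8 (-0.20 and -0.42) and Jarid2 (-0.25 and -0.22) among the lower. Of 39 RNA-binding and speckle genes 6 were higher in both and 12 lower in both. Stress kinase genes gave 4 of 30 higher in both and 11 lower in both, immediate early genes 3 and 7 of 21, and unfolded protein genes 5 and 9 of 29. The NRF2 antioxidant genes gave 9 and 2 of 29.

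Replication genes were more often higher than lower. Of 44 S phase and replication genes, 20 were higher and 2 lower with G39A in both replicates, against 19.6% and 27.8% of all genes, and the medians were 0.03 and 0.07. The replication fork genes Rfc3 (0.21 and 0.30), Prim1 (0.15 and 0.27), Mcm5 (0.30 and 0.15) and Cdc45 (0.50 and 0.16) had the largest differences shared by both replicates. Mcm5, a subunit of the replicative helicase, read 3639 in Flag and 5143 in G39A in replicate 1 and 1655 and 1790 in replicate 2. Of 38 G2 and mitosis genes 14 were higher in both and 8 lower in both. Of 11 inhibitors of cyclin-dependent kinases and pocket proteins 6 were lower in both and 1 higher, led by Cdkn1c (-0.20 and -0.32), Cdkn2a (-0.13 and -0.27) and Cdkn2c (-0.12 and -0.16). Cdkn2a, which encodes the senescence regulators p16 and p19ARF, read 538 and 564 in replicate 1 and 1885 and 1528 in replicate 2. In replicate 1 it was thus lower with G39A only after scaling. None of the S phase genes or kinase inhibitors had an unadjusted p under 0.05.

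Genes of patterning signals were compared with all genes, of which 27.8% were lower and 19.6% higher in both replicates. Of 39 TGF-beta and BMP genes, 18 were lower in both replicates and 4 higher, with medians of -0.10 and -0.02. Id2 and Id4, targets of BMP signalling, differed by -0.19 and -0.25 and by -0.21 and -0.15. WNT genes gave 13 of 36 lower in both and 2 higher, with medians of -0.02 and -0.11; the ligand Wnt4 (-0.39 and -0.33) and the secreted inhibitors Wif1 (-0.27 and -0.32) and Frzb (-0.16 and -0.24) had the largest differences shared by both replicates. The replicate 1 median of the WNT list changed sign under some alternatives, from -0.02 to 0.02. Of 28 Hox genes 11 were lower in both and 2 higher, with medians of 0.05 and -0.10, and 15 were higher in replicate 1. Hoxb8 was higher in both, at 114 in Flag and 196 in G39A in replicate 1 and 295 and 342 in replicate 2. Growth factor genes gave 13 of 36 lower in both and 8 higher, Igf1 among the lower (-0.23 and -0.24).

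Metabolic groups had small medians. Of 31 sterol and lipid synthesis genes 16 were lower in both replicates and 5 higher, with medians of -0.09 and -0.03; Fasn, fatty acid synthase, read 49900 in Flag and 49683 in G39A in replicate 1 and 57139 and 49001 in replicate 2. Glycolysis and hypoxia genes gave 6 higher in both and 6 lower in both of 36, respiratory chain genes 11 and 8 of 34, and ribosomal protein genes 11 and 1 of 34. For scale, 7 measured spike-in RNAs, control transcripts added to the labelling, had a median difference of -0.20 in replicate 1 and -0.12 in replicate 2 after scaling. They ranged from -0.30 to 0.22 in replicate 1 and from -0.19 to -0.01 in replicate 2. Before scaling their medians were 0.00 and -0.16. List medians of the size of these spike-in medians cannot be told apart from a shift in scaling. In bulk RNA, fewer cells of a type and less RNA per cell cannot be told apart here.

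**Figure D4:**
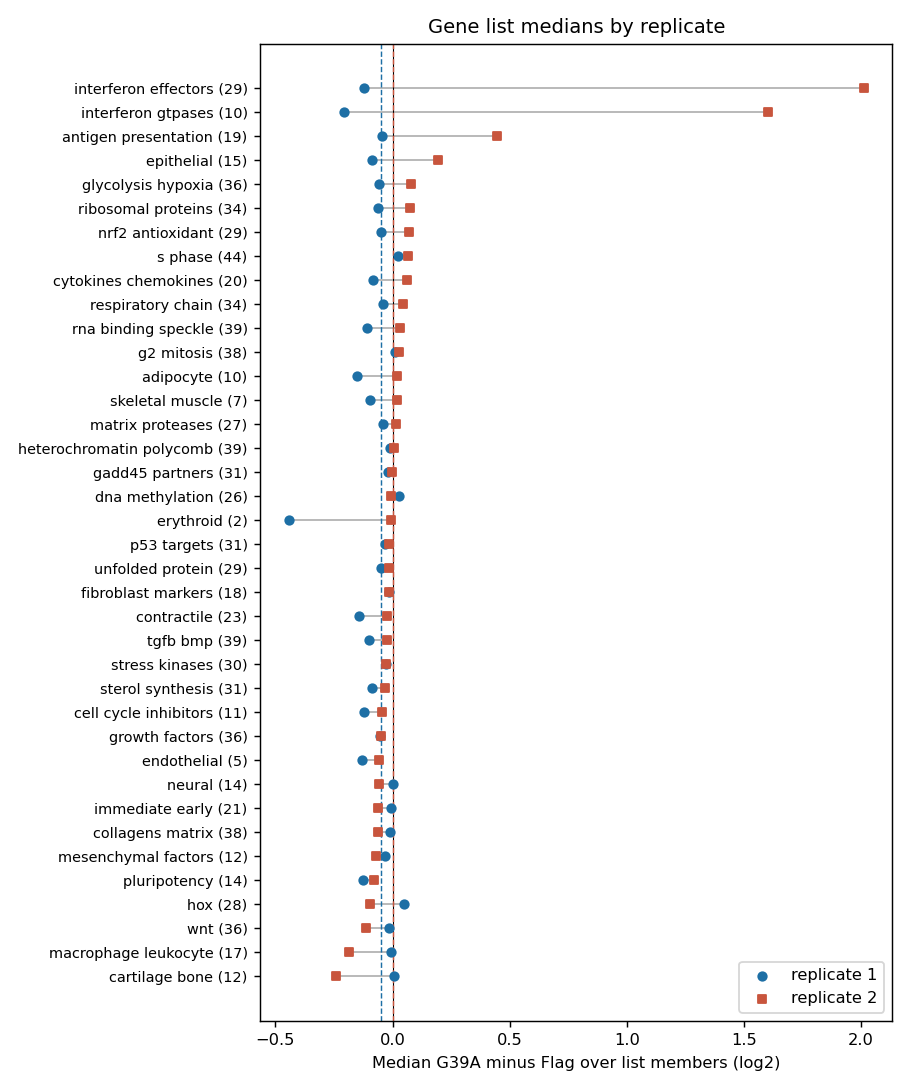
Median difference between G39A and Flag (log2) of each of 38 gene lists, over the members well above background on all 4 arrays (number in brackets), in replicate 1 (circles) and replicate 2 (squares); dashed lines are the medians over all genes. The interferon effectors (2.01), interferon GTPases (1.60) and antigen presentation genes (0.45) stand apart in replicate 2, and most other lists lie near 0 in both.

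Some genes had wide differences of opposite sign. Mpp2, a membrane scaffold protein, read 82.9 in Flag and 34.8 in G39A in replicate 1 and 23.9 and 113 in replicate 2 (-1.45 and 2.28). The placental prolactin family genes Prl2c3 and Prl2c5, close copies whose probes may share transcripts, went together: Prl2c5 read 991 and 324 in replicate 1 and 1480 and 2383 in replicate 2 (-1.81 and 0.72), and Prl2c3 differed by -1.61 and 0.76. Dkk1, a secreted WNT inhibitor, differed by -1.26 and 1.87, and Ifit3b, a relative of Ifit3 that is not on the list of effectors, by -1.36 and 1.38. Sik1, a salt-inducible kinase, went the other way, at 80.0 in Flag and 152 in G39A in replicate 1, with differences of 0.73 and -0.94. Genes chosen for opposite signs must overlap between the 2 groups after scaling, so their overlap is no separate result.

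Markers of other cell types were partly bright and partly dim. Actc1, an actin of heart and muscle, read 1807 in Flag and 2425 in G39A in replicate 1 and 13558 and 13400 in replicate 2, and Stmn2, of neurons, 6185 and 8172 in replicate 1 and 256 and 284 in replicate 2. Pecam1 and Cdh5 of endothelium, Myod1 and Myog of skeletal muscle, Plin1 of fat, Pax6 and Neurod1 of the nervous system and Gata1 of red cells were not well above background on any of the 4 arrays. Cartilage and bone markers were lower with G39A in replicate 2 in 10 of 14, with a median of -0.21, and had a median of 0.01 in replicate 1, while their summed level was 45.7 and 35.9 in replicate 1 and 114 and 123 in replicate 2. The summed erythroid level was 14.6 and 15.5 in replicate 1 and 0.306 and 0.300 in replicate 2. Fabp4, a fatty acid carrier of fat cells, read 210 in Flag and 114 in G39A in replicate 1 and 3530 and 2838 in replicate 2 (-1.08 and -0.28). The part of these cells in the other differences was not tested.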

How the data were processed

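RNA from 6 samples was hybridised to Agilent 1-colour arrays (Cy3), per the labels. The authors read the deposited intensity values with Feature Extraction 10.7 (Agilent), per the submitters' processing notes; the processed signal is background-subtracted and detrended within each array, per the file headers. The deposited value table is on the log2 scale, with a median of 6.17 in each column; how its arrays were scaled is unknown, and it served as an alternative. Coordinates of probes are mm9, per the file headers.

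Unmarked spots of a probe were averaged, log2 was taken and each array's 75th percentile subtracted. Of 41174 probes, 27668 were named through a RefSeq or Ensembl accession in RefSeq's gene table (GRCm38.p6, names only). A gene is represented by its brightest probe over the 6 arrays. Probes bright in 1 group only and those with the smallest p-values were instead taken singly. Probes that both arrays of some group placed well above background were tested with limma 3.58 in R 4.3 (all 6 arrays, replicate number as a block, Benjamini-Hochberg over 24149 probes, threshold 0.05); the script was tested on simulated data. Arrays of the same number deviated together (r 0.928 to 0.940 for the 3 pairs of groups, 21637 probes), so the numbers were taken to pair the arrays. The number of arrays limits the precision: with 2 per group, 2 residual degrees of freedom remain.

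The comparison, the 38 gene lists and the tests were chosen with earlier results of these data known. Genes are named by rule: 12 genes of the question, the 12 largest differences each way shared by both replicates, 6 bounds each way among probes bright in 1 group, 6 each way with opposite signs, and up to 4 per list, without names that are only identifiers. Other members of a list shown beside these were chosen after their values were seen. Alternatives were other scalings, background correction, the value table, filters on dim probes, slide as a block, no block, and each array left out. The protein sequence of Gadd45a was not used here. Single values of a few list members are not reported here.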

Additional observations from a re-analysis of the deposited data

How the results depend on the processing

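The count of probes past the threshold was 0 in the main analysis and stayed 0 under the other scalings, normexp background correction, the deposited value table, both filters on dim probes, the 4 arrays alone and 1 probe per gene, with lowest adjusted p-values of 0.0962 to 0.995 over these settings and a filter added after seeing the data (probes well above background on all 4 arrays). Without the replicate block it was also 0, with 126 probes at an unadjusted p under 0.05 in place of 721. Leaving out each of the 4 arrays in turn gave 0 to 0 probes. Slide as a fixed block is the same fit as leaving out the replicate 1 G39A array, since that array is alone on its slide. It is therefore no separate check of slide. With slide as a random block and no replicate number, 3 probes passed in limma, all lower with G39A and dim on both G39A arrays. These were Foxi1, AK043453 and AK050511, each with an adjusted p of 0.0449, and the cause was not tested. The 2 probes 2-fold lower in both replicates became 1 with the 75th percentile taken over probes well above background on all 6 arrays, 1 with that filter on probes, 0 with normexp correction and 294 with no filter on dim probes, and the 0 probes 2-fold higher in both became 73 with no filter, where surrogate values of dim spots enter; other causes were not tested. The share of probes of 1 sign in both replicates was 47.5% and ranged from 44.7% to 49.0%. The replicate 2 median of the interferon effectors ranged from 1.63 to 2.01 and that of the GTPases from 1.39 to 1.80. The erythroid list had no member left with probes well above background on all 6 arrays and gave no value there. Of 454 list medians recomputed, 60 changed sign, and of 480 differences of named genes 15 did.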

Other observations

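The probes with the smallest p-values were mostly bright in 1 group only. Those of Capn9, Foxi1, Hoxa13 and Sprr1b, chosen after their values were seen, were well above background on both Flag arrays and on neither G39A array, while that of AK081527 was bright on the G39A arrays only (limma adjusted p 0.202). Capn9, a calpain of the digestive tract, read 62.9 in Flag and 9.94 in G39A in replicate 1 and 28.3 and 4.85 in replicate 2 (limma adjusted p 0.145). Foxi1, a forkhead factor of ionocytes, read 40.1 and 4.81 in replicate 1 and 69.7 and 4.44 in replicate 2, at least 2.62-fold higher in Flag (limma adjusted p 0.145). Hoxa13, the most distal gene of the Hoxa cluster, read 41.2 and 4.99 in replicate 1 and 55.1 and 4.74 in replicate 2 (limma adjusted p 0.316). Sprr1b, a protein of the cornified envelope, read 29.6 and 9.92 in replicate 1 and 20.9 and 4.56 in replicate 2 (limma adjusted p 0.208). The G39A signals are not well above background, so these p-values rest partly on values at background.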
